A study of Saccharomyces cerevisiae with 36 samples.

Results

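The respiratory chain and the ATP synthase of yeast mitochondria are described here through the nuclear genes whose standard names mark them as subunits or assembly factors. Genes were taken when the first name the authors' table gives them was *COX*, *QCR*, *ATP* or *SDH* followed by a number and at most an A or B, or was 1 of *CYC1*, *CYC7*, *CYT1*, *COR1*, *RIP1*, *NDI1*, *NDE1* and *NDE2*. This gave 55 of the 5697 genes in the table, 37 for structural subunits and 18 for assembly factors. They comprised 3 NADH dehydrogenases, 4 subunits and 3 assembly factors of complex II, 8 subunits of complex III, 2 forms of cytochrome c, 9 subunits and 9 assembly factors of complex IV, and 11 subunits and 6 assembly factors of the ATP synthase. The rule reads gene names and uses no measured value. All 55 carry the same symbol in the RefSeq annotation of the R64 genome.

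In budding yeast the chain starts without the large proton-pumping complex I of animals. Single-protein NADH dehydrogenases, Ndi1 facing the matrix and Nde1 and Nde2 facing the intermembrane space, pass electrons to coenzyme Q, as does succinate dehydrogenase (complex II), which is also an enzyme of the citric acid cycle. Complex III passes them on to cytochrome c and complex IV reduces oxygen, and the proton gradient so made drives the ATP synthase. While sugar is plentiful, yeast ferments and keeps many of these genes low. They are known to be induced as fermentable sugar runs out, through the Hap2/3/4/5 complex, which binds the sequence CCAAT, and several subunits come in alternative forms used under different supplies of oxygen or carbon.

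The prototrophic laboratory strain FY4 served as wild-type, and *gal80Δ* was made in it by deleting *GAL80*, whose product holds the activator Gal4 inactive when there is no galactose. After pre-culture on pyruvate, each strain was grown in 0.1% fructose or in 0.1% fructose with 0.9% palatinose, a disaccharide of glucose and fructose that the cells must take up and cut with isomaltases. Cells were taken at mid-log and again after 10 hours (+10h) and 16 hours (+16h), with 3 biological replicates (A, B and C) in each of the 12 groups and so 36 libraries. All the groups share the FY4 background and the fructose.

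Library totals ranged from 6020770 to 11785148 counts, so that 3 counts correspond to 0.255 to 0.498 CPM (counts scaled to a library total of 1e6). This floor accounts for counting error alone. Reads start from the poly(A) tail, and a level therefore does not scale with the length of a gene. The strain and medium labels were checked first. *GAL80* ranged from 45.9 to 117 CPM in wild-type libraries and from 8.10 to 17.2 CPM in those of the mutant, lower in all of them but above the floor, and whether the remaining reads lie outside the deleted sequence was not tested. *GAL1*, a target of Gal4, ranged from 19.3 to 73.3 CPM against 6611 to 19461 CPM. *IMA1*, an isomaltase, ranged from 6.24 to 14.3 CPM in fructose and from 181 to 4052 CPM with palatinose added. The OD at harvest was 0.26 to 0.35 at mid-log, 1.45 to 1.8 at +10h, and 1.8 to 2.1 at +16h in all cultures but those of the wild-type in fructose-palatinose, which reached 2.6 to 2.8. Density therefore moved with time and with 1 of the cultures, and its part in the results below was not tested.

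One library stood apart. Replicate B of the wild-type in fructose at +10h correlated with A and C at r = 0.947 and r = 0.939 over the log2 CPM of all genes, where A and C correlated at 0.989. It was the lowest of its group for 36 of the 54 members tested (66.7%) and for 40.2% of all genes, and lay more than 1 log2 unit under the mean of A and C for 14 members (25.9%) and for 8.98% of all genes. Its lowest members against that mean were *CYC7* (-2.45), *COX13* (-2.35), *COX7* (-1.87), *COX5A* (-1.70) and *SDH4* (-1.68). It stays in. Its weight is shown by giving values without it beside the results for wild-type fructose at +10h that it moves most.

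The levels of the members spanned a wide range. *COX13*, a small subunit of complex IV, was the most abundant, with a median of 3826 normalised CPM over the 36 libraries (range 816 to 5902), where normalised CPM stands for CPM scaled by the TMM factors of edgeR. *SDH7*, an assembly factor of complex II, had the lowest median of those tested, at 2.31. *NDE2* spanned the widest range, from 1.70 to 499, a ratio of 294 between its highest and lowest libraries, and *CYC7* the next, from 5.80 to 154, a ratio of 26.5. *ATP10*, whose product chaperones a mitochondrially encoded subunit, had 10 counts in all and was at 0 in 30 libraries, and did not pass the filter on low counts. The last 300 bases of its counted interval lie wholly within *CST9* on the same strand.

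Since CCAAT is the sequence that the Hap complex is known to bind, the 300 bases before each start codon were read from the R64 genome of RefSeq. The sequence, as CCAAT or on the other strand as ATTGG, occurred in 40 of the 55 members (72.7%), against 2349 of the 5551 genes of the table found in the annotation (42.3%). Among the members it occurred in 31 of 37 subunit genes (83.8%) and in 9 of 18 assembly genes. It was present before all 4 subunit genes of complex II and all 11 of the ATP synthase, before 8 of 9 of complex IV and 6 of 8 of complex III, and before neither *CYC1* nor *CYC7*. It occurred before 10 of the 12 tested members that rose in every culture between mid-log and +10h (83.3%). It also occurred before 17 of the 22 that rose in 1 to 3 cultures (77.3%) and 13 of the 20 that rose in none (65.0%). A match is a description of the letters and no evidence of binding. The matches farthest from the start codon are shown for the complex II subunits and for 4 other genes that rose in every culture, each on the strand of the gene with 12 bases to either side and the match in capitals.
SDH1, chrXI:171368-171396, minus strand, 250 bases before the start codon: cgggcctcttctATTGGttgtttgtttgc
SDH2, chrXII:54075-54103, minus strand, 155 bases: aggcggcctcgcATTGGcccaattagctc
SDH3, chrXI:179508-179536, plus strand, 142 bases: aggtccattctgATTGGctgcggtagccc
SDH4, chrIV:817705-817733, plus strand, 228 bases: ataagcattgagCCAATcgctgctgtttt
COX6, chrVIII:209407-209435, plus strand, 281 bases: gctccatacgagCCAATcagggccccgcg
COX12, chrXII:225443-225471, minus strand, 282 bases: aaacaacacacaATTGGttcaaaaagcac
COX13, chrVII:144584-144612, plus strand, 207 bases: ttttttttcccaCCAATgagaggcggtac
NDI1, chrXIII:30018-30046, minus strand, 222 bases: tattcattcggaCCAATcatatgaaggca

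*SDH1*, *SDH2*, *SDH3*, *COX6*, *COX12* and *NDI1* each held a second match nearer to the start codon, and that of *SDH2*, cctcgcattggcCCAATtagctccggtgt at chrXII:54069-54097, lies 6 bases from the first, on the opposite strand. *NDE2*, which changed more than any other member, held none.

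The first question was how these transcripts change as a culture leaves mid-log growth. Between mid-log and +10h, most of the subunit genes rose in the wild-type and fewer passed in *gal80Δ*, and *NDE2*, for an external NADH dehydrogenase, had the largest increase in every culture. In the wild-type *CYC7*, for cytochrome c isoform 2, and *SDH2* of complex II came next, and in *gal80Δ* *SDH2* did. A gene is said to rise or fall where its log2 fold change passed 0.5 in size with an adjusted p-value below 0.05 (edgeR's quasi-likelihood test, one fit of all libraries, Benjamini-Hochberg adjustment over the 5479 genes tested). Of the 54 members, 28 rose and 4 fell in the wild-type in fructose, against 29.1% of all genes rising and 26% falling. In fructose-palatinose 31 rose and 2 fell there (24.5% and 21.2% of all genes). In *gal80Δ* 16 rose and 3 fell in fructose (28.9% and 23.7%), and 14 rose and 6 fell in fructose-palatinose (27.4% and 23.2%). With TMM factors, the members' share of risers in *gal80Δ* was near that of all genes, and it was above it in the wild-type. Whether the change over time differed between the strains was not tested, here or for the single genes below.

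Of the 54, 12 rose in all 4 cultures (*NDI1*, *NDE2*, *SDH1*, *SDH2*, *SDH3*, *SDH4*, *SDH8*, *CYC7*, *COX6*, *COX12*, *COX13* and *ATP22*), 1 fell in all 4 (*SDH7*), and 14 passed the test in none. None rose in 1 culture and fell in another. How many of all genes rose, fell or passed in none over the 4 cultures was not counted, so these counts stand without such a share. Scaling by library size alone, in place of TMM, shifted every log2 change between these times upwards, by 0.36 and 0.26 in the wild-type in fructose and fructose-palatinose and by 0.27 and 0.29 in *gal80Δ*. The counts of members that rose and fell were then 38 and 2 in the wild-type in fructose (42% and 15.3% of all genes), 42 and 1 in fructose-palatinose (35.2% and 11.9%), and in *gal80Δ* 31 and 2 (40% and 15.3%) and 32 and 2 (39.8% and 13.6%). The share of risers among the members was above that of all genes in all 4 cultures with this scaling, so that for *gal80Δ* the reading depends on the scaling. Without the library that stood apart, 36 members passed in the wild-type in fructose, 32 rising and 4 falling (28.2% and 26.3% of all genes), 30 of them shared with the 32 called with it.

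**Figure D1:**
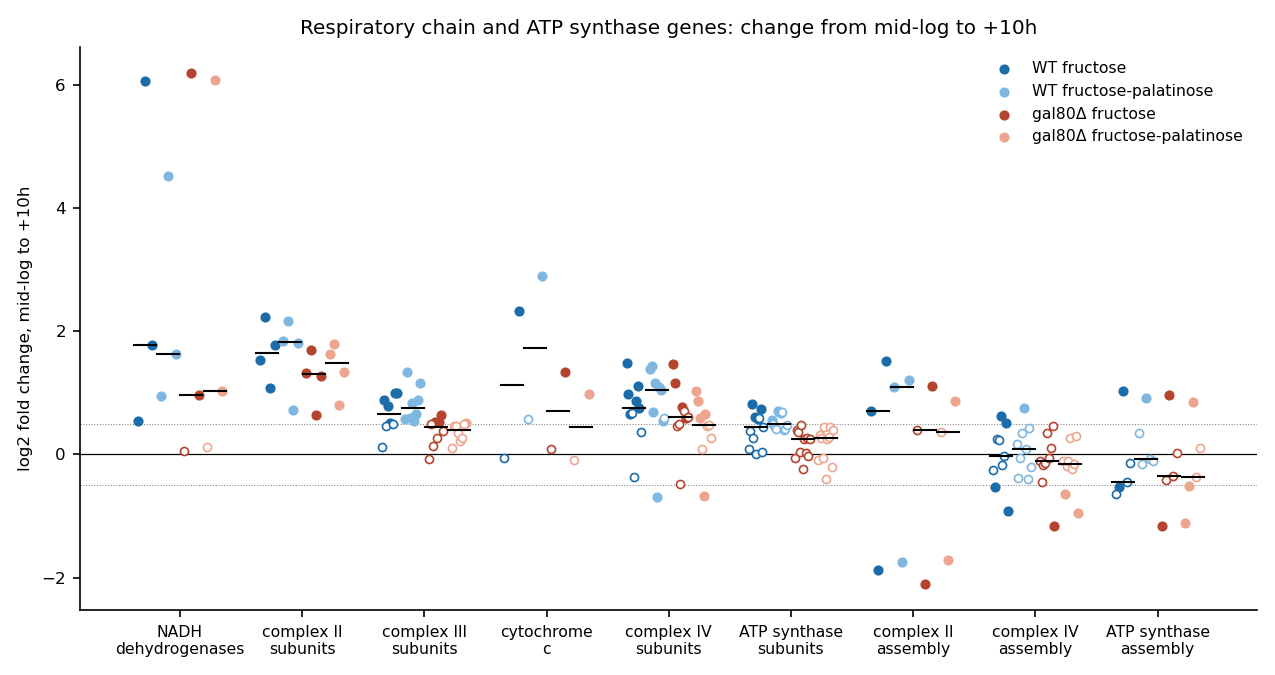
Log2 fold change from mid-log to +10h of the 54 genes tested, by complex and kind, for the 4 cultures; filled points passed the test, open points did not, bars are medians and dotted lines the 0.5 minimum. All 4 subunits of complex II lie above the minimum in every culture, and those of the ATP synthase lie mostly below it.

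All 4 subunit genes of complex II rose in every culture, with medians of 1.65 and 1.82 on the log2 scale in the wild-type in fructose and fructose-palatinose and of 1.30 and 1.48 in *gal80Δ*, beside a median over all genes within 0.062 of 0. Without the library that stood apart the first of these was 1.87. *SDH2*, for the iron-sulphur subunit, had 309, 244 and 265 normalised CPM at mid-log in the wild-type in fructose (replicates A, B and C here and below) and 1456, 960 and 1436 at +10h. In *gal80Δ* in fructose it went from 319, 396 and 425 to 1388, 1176 and 1122. Mid-log and +10h libraries did not overlap in any culture, and the log2 changes were 2.24 ± 0.16 (SE), 2.17 ± 0.16, 1.69 ± 0.16 and 1.80 ± 0.16 in the same order, with adjusted p-values of 8.86e-13, 3.28e-12, 2.62e-10 and 9.2e-11 by edgeR.

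*SDH1*, for the flavoprotein that oxidises succinate, went from 128, 97.8 and 101 to 359, 246 and 335 normalised CPM in the wild-type in fructose, and from 87.5, 130 and 120 to 323, 344 and 373 in *gal80Δ* in fructose-palatinose. The anchor *SDH4* went from 321, 224 and 238 to 1127, 360 and 1182 in the wild-type in fructose, where its +10h value of 360 is that of the library that stood apart. Their log2 changes in the 4 cultures were 1.53, 1.84, 1.33 and 1.63 for *SDH1* and 1.77, 1.81, 1.28 and 1.34 for *SDH4*, and that of *SDH4* in the wild-type in fructose was 2.11 without that library. The other anchor, *SDH3*, the most abundant of the 4 at mid-log, changed least, by 1.07, 0.72, 0.64 and 0.80. It had 614, 601 and 800 normalised CPM at mid-log in the wild-type in fructose and 1399, 1476 and 1363 at +10h.

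**Figure D2:**
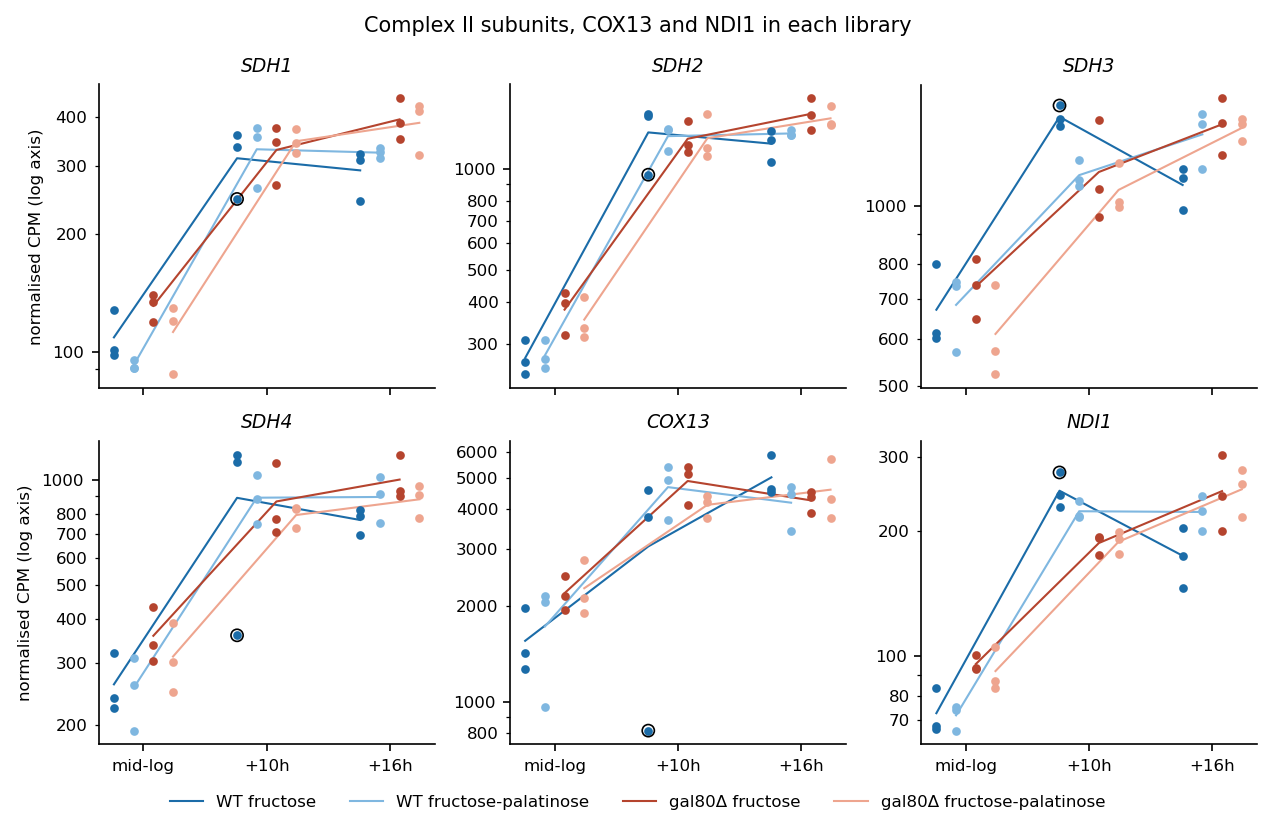
Normalised CPM (log axis) of the complex II subunits, *COX13* and *NDI1* in each library (points) with group means joined by lines; the ringed point is wild-type fructose +10h replicate B. All +10h libraries of *SDH1*, *SDH2*, *SDH3* and *NDI1* lie above all mid-log libraries of their culture, and *COX13* is at 816 normalised CPM in the ringed library.

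Of the NADH dehydrogenases, *NDE2* rose from a few CPM to levels that in *gal80Δ* approached those of its paralog *NDE1*. In wild-type cells in fructose it had 6.12, 1.70 and 4.96 normalised CPM at mid-log and 315, 346 and 188 at +10h. In fructose-palatinose it had 5.05, 5.18 and 4.15 and then 145, 112 and 73.2. In *gal80Δ* it went from 7.02, 4.77 and 5.72 to 499, 430 and 354 in fructose and from 4.77, 5.77 and 5.26 to 339, 434 and 290 in fructose-palatinose. The 4 cultures began at like levels, and at +10h the wild-type in fructose-palatinose lay below all the libraries of the other 3. The log2 changes were 6.06 ± 0.31, 4.52 ± 0.30, 6.20 ± 0.30 and 6.07 ± 0.30 (SE), the largest of any member, with the highest of the 4 adjusted p-values at 1.96e-13 by edgeR. An antisense gene, *YDL085C-A*, covers the last 300 bases of the interval counted for *NDE2*. The change in its own mean log2 level between these times was between -0.47 and 0.17, beside 4.41 to 6.14 for *NDE2* on the same measure. Whether the counting used strand is not stated.

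*NDI1*, for the internal enzyme, rose by 1.78, 1.63, 0.97 and 1.03 on the log2 scale (highest adjusted p = 8.37e-07 by edgeR). It went from 66.6, 67.9 and 83.8 to 228, 276 and 244 normalised CPM in the wild-type in fructose, and from 92.8, 93.3 and 100.3 to 192, 193 and 175 in *gal80Δ* in fructose. The antisense gene *GTR1*, with a median of 211 CPM, covers 270 of the last 300 bases counted for *NDI1*. The change in the mean log2 level of *GTR1* was between -0.17 and 0.09. *NDE1*, the main external enzyme at mid-log, rose in the wild-type alone, by 0.55 in fructose (0.48 and not passing without replicate C) and 0.95 in fructose-palatinose, beside log2 changes of 0.06 and 0.12 in *gal80Δ* that did not pass.

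In complex III, 5 of 8 subunit genes rose in the wild-type in fructose, all 8 in fructose-palatinose and 3 and 1 in *gal80Δ*, with median log2 changes of 0.65 (0.85 without the library that stood apart), 0.75, 0.44 and 0.40 over the 4 cultures. *CYT1*, for cytochrome c1, rose by 0.89 and 1.34 in the wild-type. It went there from 446, 536 and 345 to 1063, 1241 and 1055 normalised CPM in fructose-palatinose, without overlap. In *gal80Δ* its log2 changes were 0.50 and 0.46, with adjusted p-values of 0.0597 and 0.0813 by edgeR. The Rieske iron-sulphur protein gene, *RIP1*, rose by 1.00 and 1.15 in the wild-type, and its rise of 0.52 in *gal80Δ* in fructose-palatinose passed as well. *COR1*, for a core subunit, rose only in the wild-type in fructose-palatinose at these times, by 0.58, beside 0.12, -0.07 and 0.11 in the other cultures.

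The 2 cytochrome c genes parted. *CYC7* rose by 2.33, 2.89, 1.33 and 0.98, while the log2 changes of *CYC1* were -0.06, 0.57, 0.09 and -0.09 and did not pass. In wild-type fructose cultures *CYC7* had 16.4, 5.80 and 8.14 normalised CPM at mid-log and 79.9, 12.3 and 58.4 at +10h, of which 12.3 is the library that stood apart, and its log2 change was 2.76 without it. Both rises in *gal80Δ* missed the threshold without replicate A and without C, with adjusted p-values of 0.051 to 0.206 by edgeR. *CYC7* shares 142 of its last 300 bases with the antisense gene *UTR2*, whose mean log2 level went the other way, by -2.98 to -2.15. *CYC1* shares 225 with the antisense gene *UTR1*, whose mean log2 level went up by 0.59 to 0.97.

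In complex IV, 6 of 9 subunit genes rose in the wild-type in fructose, 7 in fructose-palatinose and 4 in *gal80Δ* in each medium, with median log2 changes of 0.76 (1.02 without that library), 1.04, 0.61 and 0.48. *COX13* rose by 0.98, 1.44, 1.16 and 0.86. Its wild-type fructose libraries had 1963, 1427 and 1270 normalised CPM at mid-log and 3779, 816 and 4574 at +10h, so that the library that stood apart lay below every mid-log library, and the log2 change was 1.39 without it. The rise there missed the threshold without replicate A (adjusted p = 0.0952 by edgeR), without C (0.399) and with only the groups compared (0.175), and those in *gal80Δ* without A (0.0951 and 0.173) or, in fructose-palatinose, without C (0.135). *COX12* rose by 1.48, 1.38, 1.47 and 1.03 and *COX6* by 0.86, 1.09, 0.77 and 0.66, while *COX9* passed in no culture. *COX7* rose in the wild-type, by 1.11 and 1.04, and did not pass in *gal80Δ*, where its mean log2 level went up by 0.69 and 0.47. In the library that stood apart it lay at -1.87 against the mean of A and C. *COX5B*, for the form of subunit 5 known from cells short of oxygen, was the only subunit gene to fall, by 0.69 and 0.67 in the fructose-palatinose cultures of the wild-type and of *gal80Δ*, and neither fall passed with library size alone (log2 changes of -0.42 and -0.37).

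The ATP synthase moved least. Of its 11 subunit genes 4 rose in the wild-type in fructose, 4 in fructose-palatinose and none in *gal80Δ* in either medium, and the medians were 0.44 (0.56 without the library that stood apart), 0.49, 0.25 and 0.27. *ATP2*, for the catalytic beta subunit, had log2 changes of 0.00, 0.69, -0.23 and -0.39, of which only that in the wild-type in fructose-palatinose passed. There it went from 825, 790 and 479 to 1314, 1141 and 930 normalised CPM. *ATP1*, for the alpha subunit, likewise rose only there, by 0.55. Both genes had their lowest value of all libraries in the one that stood apart, *ATP2* at 443 and *ATP1* at 905 normalised CPM. Against the mean of A and C of that group these were -1.11 and -0.81 on the log2 scale. *ATP15*, for the epsilon subunit, rose only in the wild-type in fructose, by 0.82, from 587, 586 and 794 to 1060, 1241 and 1162. Beside the counts of 0 in *gal80Δ*, 4 subunit genes had an unadjusted p below 0.05 by edgeR in each medium. The smallest adjusted p-values there were 0.00109 in fructose and 0.00239 in fructose-palatinose by edgeR. All log2 changes of these subunit genes in *gal80Δ* stayed under the 0.5 minimum, the highest at 0.47 and 0.45.

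The assembly genes went in both directions. Over the 4 cultures 5, 4, 2 and 2 of the 17 tested rose and 4, 1, 3 and 5 fell, against 23, 27, 14 and 12 subunit genes that rose of 37 and 0, 1, 0 and 1 that fell, and beside shares of all genes of 29.1%, 24.5%, 28.9% and 27.4% rising and 26%, 21.2%, 23.7% and 23.2% falling. In the wild-type in fructose the assembly genes were thus near the shares of all genes, and their difference from the subunits was not tested. Those of complex II split. *SDH8*, a chaperone of Sdh1, rose in all the cultures, by 1.52, 1.21, 1.12 and 0.86. *SDH5*, which attaches FAD to Sdh1, rose in the wild-type, by 0.70 and 1.09, beside log2 changes of 0.39 and 0.36 in *gal80Δ* that did not pass. *SDH7*, which helps mature the iron-sulphur subunit, fell by 1.88, 1.74, 2.11 and 1.71. Its levels were low, 4.79, 7.92 and 8.26 normalised CPM at mid-log in the wild-type in fructose and 1.99, 2.70 and 1.02 at +10h, and its last 300 bases lie wholly within *GRX2* on the same strand and *EMI1* on the other. The changes in the mean log2 level of *GRX2* were between 0.66 and 1.28.

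*ATP22*, needed to translate a mitochondrially encoded subunit of the synthase, rose by 1.04, 0.92, 0.96 and 0.85. It went from 31.6, 28.6 and 24.2 to 62.1, 44.8 and 65.9 normalised CPM in the wild-type in fructose. *ATP11*, a chaperone of the beta subunit, fell in *gal80Δ* by 1.15 and 1.10, with adjusted p-values of 0.0431 and 0.0457 by edgeR that were lost without replicate B or C and with library size alone. *COX23*, which serves copper delivery to complex IV, fell in 3 of the 4 cultures, by 0.91 (a log2 change of -0.68 and not passing without replicate C), 1.16 and 0.94, and had a log2 change of -0.20 in the wild-type in fructose-palatinose.

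Between +10h and +16h few members passed the test. In the wild-type none rose and 4 fell in fructose (11.1% of all genes changed in either direction) and 1 fell in fructose-palatinose (1.59%). In *gal80Δ* 1 rose and 2 fell in fructose (9.27%) and 2 rose and 2 fell in fructose-palatinose (8.6%). Small upward shifts were shared by many in *gal80Δ*, with 41 and 44 of the 54 positive. The medians were 0.23 and 0.25 beside -0.03 and -0.01 over all genes. All 11 subunit genes of the ATP synthase, all 8 of complex III and all 4 of complex II were positive in both media. The unadjusted p was below 0.05 for 16 and 13 members by edgeR, and the share of all genes at that cut was not counted. In the wild-type 27 and 31 members were positive. *NDE2* fell by 1.25 ± 0.24 and 1.05 ± 0.23 (SE) in *gal80Δ*, from 499, 430 and 354 to 179, 190 and 169 normalised CPM in fructose, and by 0.72 in the wild-type in fructose. *COX5B* fell in all cultures but the wild-type in fructose-palatinose, by 0.54, 0.93 and 0.61, and *COR1* rose in *gal80Δ* in fructose, by 0.64. Without the library that stood apart none of the 4 falls in the wild-type in fructose passed (*NDE2* -0.53, *NDI1* -0.42, *COX5B* -0.41 and *ATP15* -0.50), and the 1 in fructose-palatinose, *NDE1* by 0.51, was lost when any replicate letter was left out.

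Counted as transcripts, complex II made up more of the chain after mid-log. Its subunits took 6.55 to 8.89% of the CPM of the 37 subunit genes in the mid-log libraries and 10.3 to 14.8% in the +10h and +16h libraries, with no overlap. For the wild-type in fructose its share went from 7.54 ± 0.80% (SD, n = 3) at mid-log to 13.9 ± 1.2% at +10h and 11.5 ± 0.27% at +16h, and in *gal80Δ* in fructose from 8.18 ± 0.76% to 12.5 ± 0.83% and 12.8 ± 1.1%. The ATP synthase took 34.5 to 40.9% at mid-log and 25.5 to 36.4% later. The ratio of complex II to ATP synthase transcripts, over the members alone, was 0.17 to 0.25 at mid-log and 0.33 to 0.52 later. The synthase genes *ATP18* (505 to 1829 CPM) and *ATP19* (835 to 3127 CPM) are outside the members and enter neither these shares nor this ratio. The same holds for *QCR10*, *COX26* and *SDH9*. Complex III averaged between 18.2 and 20.99% in the 12 groups. These shares do not depend on the scaling between libraries.

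**Figure D3:**
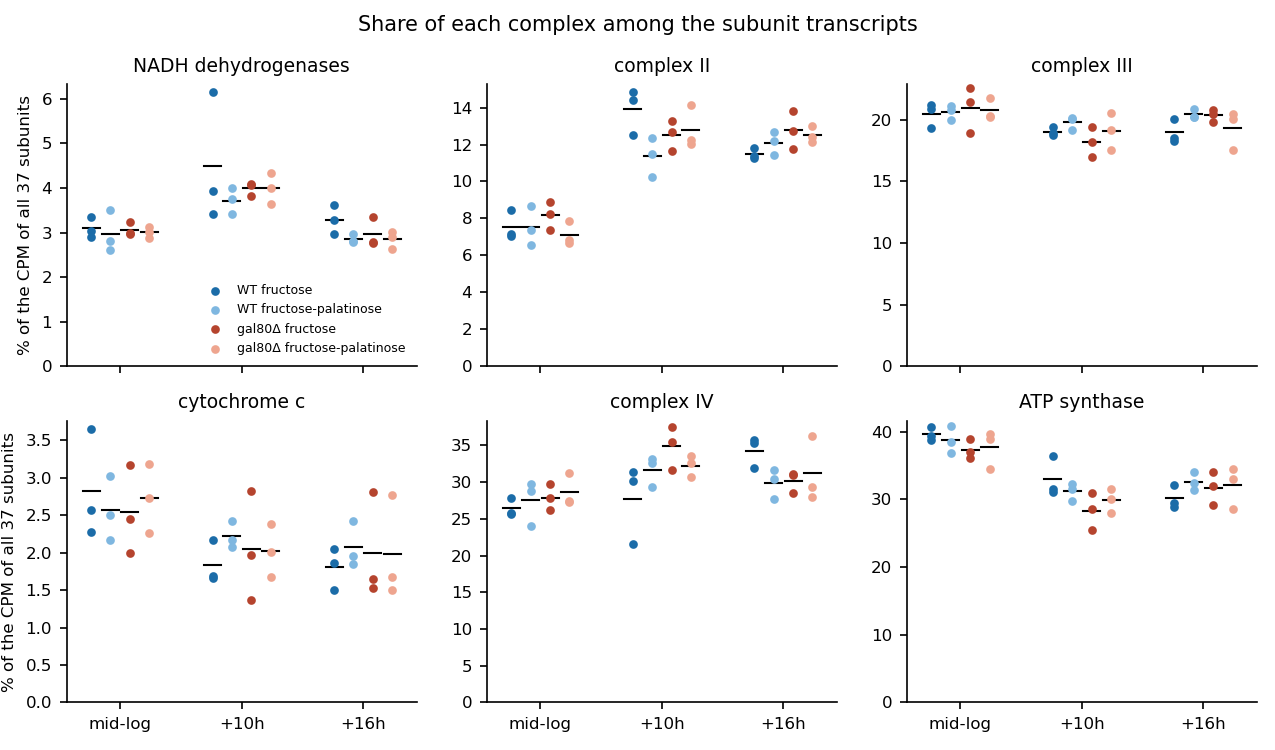
Share of each complex in the CPM of the 37 subunit genes (percent), by time and culture, with a point for each library and a bar for the mean of each group. Complex II is at 6.55 to 8.89% in the mid-log libraries and at 10.3 to 14.8% in the later ones, and the 21.6% point of complex IV at +10h is the library that stood apart.

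Among the members, 3 pairs are alternative forms of one protein, and their ratios are given here by group. The ratio of *NDE1* to *NDE2* counts in the wild-type went from 142 ± 94 (SD, n = 3) at mid-log to 2.62 ± 1.17 at +10h in fructose and from 92.1 ± 11.4 to 8.22 ± 2.58 in fructose-palatinose. For *gal80Δ* it went from 87.7 ± 18.1 to 1.25 ± 0.33 and from 92.6 ± 3.5 to 1.55 ± 0.42. The ratio of *COX5A* to *COX5B*, the aerobic and the hypoxic form of subunit 5, averaged 3.79 to 4.6 in the 4 groups at mid-log, 6.81 to 14.9 at +10h and 12.6 to 16.1 at +16h. At +10h it was 14.9 ± 1.2 in the wild-type in fructose-palatinose and 6.81 ± 0.30 in *gal80Δ* there. Ratios of the wild-type fructose replicates at +10h spread from 3.03, in the library that stood apart, to 16.0, and their mean was 9.64, or 12.9 without that library.

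The ratio of *CYC1* to *CYC7* separated the strains at mid-log. In fructose it was 57.0 ± 26.7 in the wild-type against 11.2 ± 5.8 in *gal80Δ*, and with palatinose 60.9 ± 7.5 against 12.2 ± 1.2. At +10h the means were 12.3 in the wild-type in fructose-palatinose and 4.28 and 5.70 in *gal80Δ*. For the wild-type in fructose the mean was 16.4 ± 16.2, of which the library that stood apart had 35.1, and 7.09 without it. Over these pairs and *SDH1* with its paralog *SDH9*, 80 ratios were compared between strains, media and successive times by two-sided exact permutation tests on the log2 ratio. With 3 libraries against 3 the exact permutation test cannot go below p = 0.1, which 37 of the 80 reached, and after Benjamini-Hochberg adjustment over the 80 the smallest was 0.216. The sequences of the pairs are far enough apart to be told apart by reads, with 47.6% of aligned positions identical over the last 300 bases of *COX5A* and *COX5B*, 52.5% for *CYC1* and *CYC7* and 48.5% for *NDE1* and *NDE2*. The longest identical run was of 35 bases, in *CYC1* and *CYC7*, and of 6 in the other pairs.

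**Figure D4:**
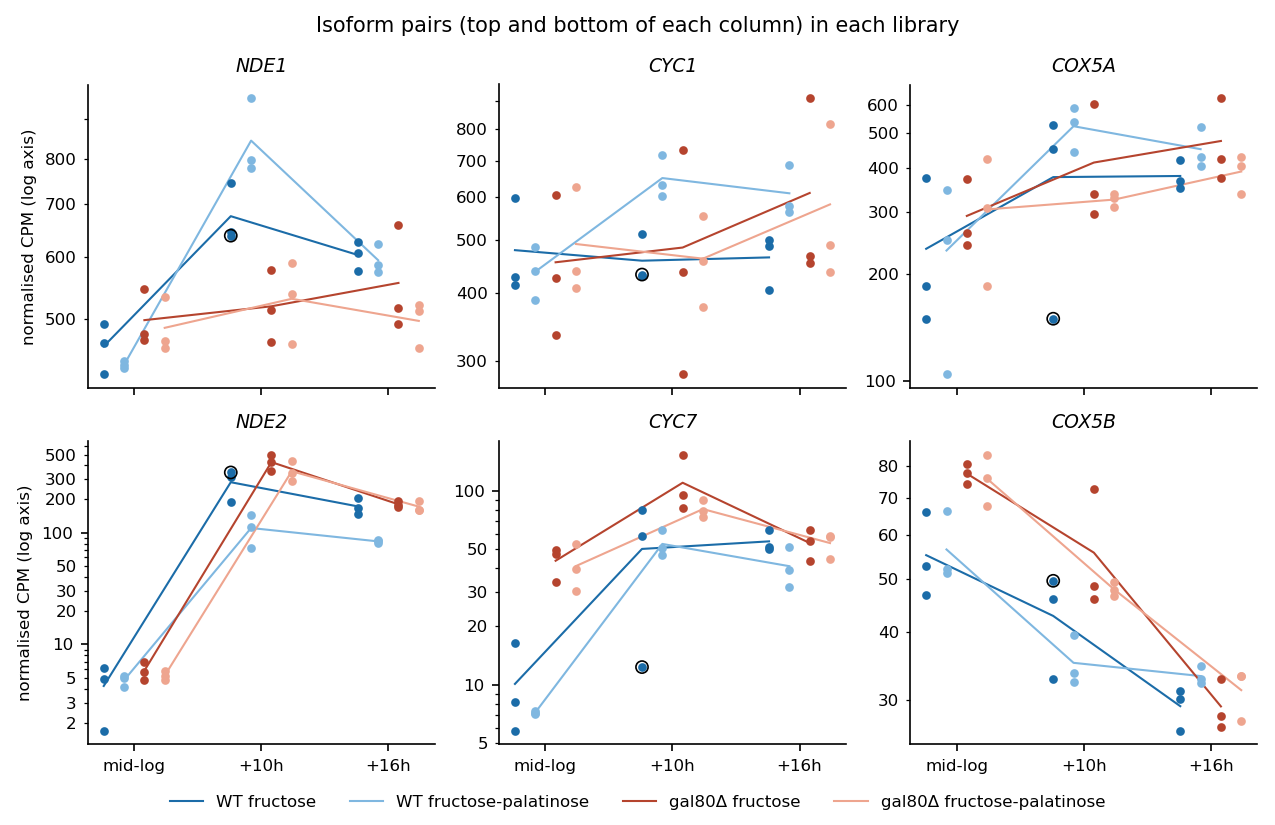
Normalised CPM (log axis) of the 3 isoform pairs in each library (points), with group means joined by lines; the ringed point is wild-type fructose +10h replicate B. *NDE2* rises from between 1.70 and 7.02 at mid-log to between 73.2 and 499 at +10h, *CYC7* starts higher in *gal80Δ*, and *COX5B* ends lower than it starts.

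Few members passed the test between the media. At mid-log no member differed between the media in either strain (0.128% of all genes did in each), nor at +10h (0.146%) or +16h (0.128%) in *gal80Δ*. Of these 4 comparisons, 1 member in all had an unadjusted p below 0.05 by edgeR, in *gal80Δ* at mid-log, and DESeq2 called none. Wild-type cultures had 1 member higher and 1 lower with palatinose at +10h (11.6% of all genes changed), and 1 lower at +16h (6.19%). The unadjusted p was below 0.05 for 8 and 6 members at these times by edgeR, without a count of all genes at that cut. At +16h 44 of the 54 had a positive log2 difference, with a median of 0.21 beside -0.0048 over all genes, among them all 11 subunit genes of the ATP synthase, all 8 of complex III and all 4 of complex II. *NDE2* was the member called at both times, lower with palatinose in the wild-type by 1.36 ± 0.24 (SE) at +10h and by 1.04 ± 0.24 at +16h, with adjusted p-values of 0.000207 and 0.00501 by edgeR.

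At +10h the wild-type values of *NDE2* were 315, 346 and 188 normalised CPM in fructose and 145, 112 and 73.2 in fructose-palatinose, and at +16h 165, 148 and 202 against 83.7, 86.2 and 80.9. The media did not overlap at either time. Without the library that stood apart the +10h difference was 1.19 lower (adjusted p = 0.0019 by edgeR, where the alternatives ranged from 9e-07 by DESeq2 to 0.0593 with only the groups compared). The +16h difference missed the threshold without replicate A (adjusted p = 0.101) and without C (0.0978). The member higher at +10h was *ATP23*, a protease and chaperone of the synthase, by 0.53, or by 0.28 and not passing without that library.

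The strains differed mainly in *CYC7* and *NDE2*. At mid-log 2 members were higher in *gal80Δ* in fructose (7.15% of all genes changed) and 3 in fructose-palatinose (8.01%). At +10h 1 was higher and 1 lower in fructose (7.5%) and likewise in fructose-palatinose (14.3%), and at +16h 1 was higher in each medium (5.97% and 12.8%). In every one of these 6 comparisons the share of members called was below that of all genes, in the fit of all libraries with TMM factors. More members passed in some of them with library size alone or with only the groups compared. The share of all genes is not given for those settings. The comparisons between media and those between strains use the same libraries and are not independent of each other.

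*CYC7* had 16.4, 5.80 and 8.14 normalised CPM in the wild-type and 47.3, 49.6 and 34.02 in *gal80Δ* at mid-log in fructose, and 7.14, 7.32 and 7.11 against 39.4, 53.2 and 30.3 in fructose-palatinose. The strains did not overlap in either medium, and the log2 differences were 2.13 ± 0.41 and 2.51 ± 0.43 (SE), with adjusted p-values of 0.00108 and 0.000282 by edgeR. At +10h in fructose *CYC7* was higher by 1.14, but by 0.68 without the library that stood apart, which did not pass, and at +16h its log2 differences were -0.03 and 0.40.

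*NDE2* in fructose-palatinose was higher in *gal80Δ* by 1.69 ± 0.24 at +10h and by 1.03 ± 0.24 at +16h, with adjusted p-values of 5.84e-06 and 0.0027 by edgeR. At +10h the libraries had 145, 112 and 73.2 normalised CPM against 339, 434 and 290 in the mutant, without overlap. Its paralog *NDE1* went the other way at +10h in that medium, with 797, 955 and 779 against 464, 539 and 589, lower by 0.67 ± 0.12 (adjusted p = 0.000262 by edgeR). These differences of *CYC7* at mid-log and of *NDE1* and *NDE2* in fructose-palatinose passed under every alternative run, and the other 6 between the strains, in *SDH8*, *SDH5*, *NDI1*, *ATP15* and *CYC7* at +10h, did not.

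**Figure D5:**
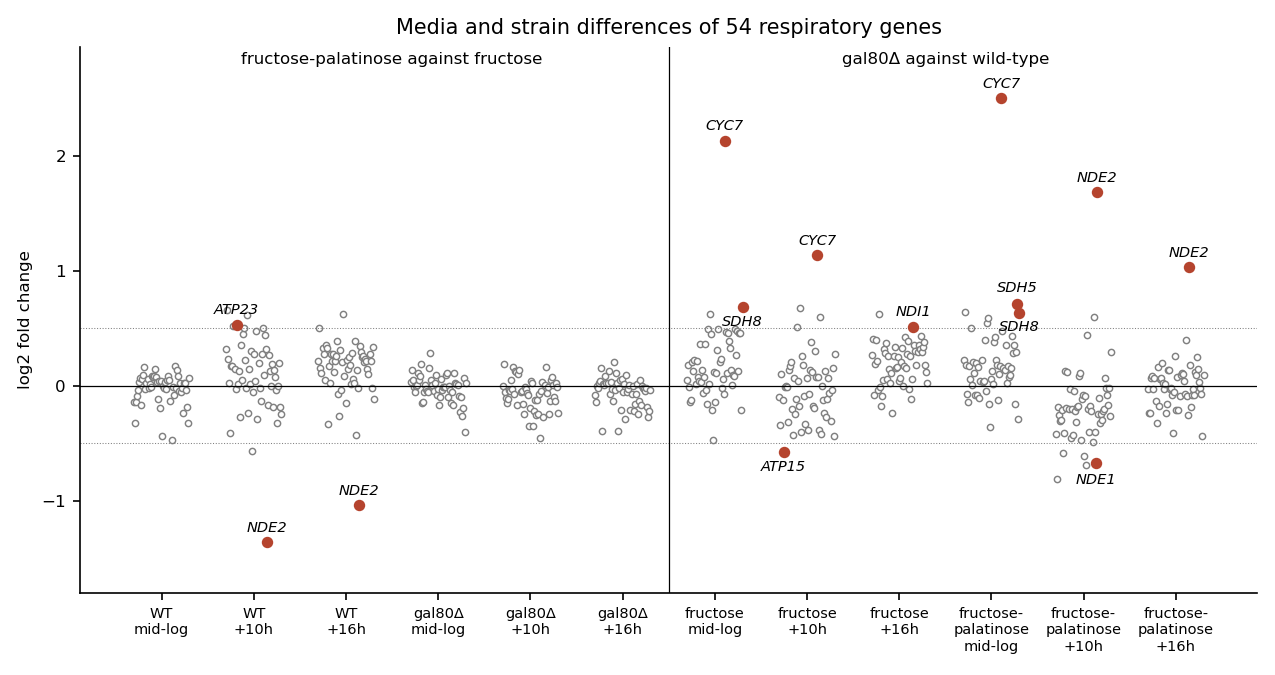
Log2 fold change of the 54 genes tested between media (left, for each strain and time) and between strains (right, for each medium and time); filled, named points passed the test and dotted lines mark the 0.5 minimum. *NDE2* is lower with palatinose in the wild-type at +10h and +16h, and *CYC7* is higher in *gal80Δ* at mid-log.

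Members other than these moved little between strains, with shifts shared by many in places. At mid-log 42 of the 54 members in fructose and 43 in fructose-palatinose had a positive log2 difference of *gal80Δ* over the wild-type. The medians were 0.13 and 0.16 beside 0.005 and -0.002 over all genes. All 8 subunit genes of complex III were positive in both media. The unadjusted p was below 0.05 for 11 and 10 members by edgeR, again without a count of all genes at that cut. Members took a median of 1.56% and 1.61% of counts in the wild-type then, and of 1.90% and 1.86% in *gal80Δ*. In fructose-palatinose at +10h none of the 11 ATP synthase subunit genes and none of the 8 of complex III had a positive log2 difference of *gal80Δ* over the wild-type, with medians of -0.30 and -0.27 beside 0.02 over all genes, and 0 and 0 of them passed. Their unadjusted p was below 0.05 for 4 and 1. In fructose at +16h the medians had the other sign, 0.27 and 0.30 beside 0.01 over all genes, again with none passing. The question of whether palatinose acts differently in the 2 strains was tested as an interaction, which no member passed at mid-log, +10h or +16h (0%, 0.803% and 1.53% of all genes). The unadjusted p was below 0.05 for 0, 2 and 2 members by edgeR, and DESeq2 called none. For *NDE2* the effect of palatinose was higher in *gal80Δ* by 1.09 at +10h and 0.97 at +16h, with adjusted p-values of 0.115 and 0.178 by edgeR.

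The authors' table gives 7 further genes of these complexes a name that the choice of members did not take, some of them the name of a neighbour, and RefSeq names them *SDH6*, *SDH9*, *QCR10*, *COX19*, *COX26*, *ATP18* and *ATP19*. Between mid-log and +10h *COX26*, a small subunit of complex IV, rose by 3.97, 3.59, 3.57 and 3.27 and *SDH6*, an assembly factor of complex II, by 2.54, 2.04, 1.61 and 1.63. *SDH9*, the paralog of *SDH1*, rose by 5.30, 3.54, 5.09 and 4.66. Its wild-type fructose libraries had 0.331, 1.27 and 2.24 normalised CPM at mid-log and 68.7, 56.3 and 38.6 at +10h, the mid-log values standing near the floor. *COX19* also rose in every culture, by 0.53 to 0.88. *QCR10*, a small subunit of complex III, rose in the wild-type by 1.13 and 1.07 and in *gal80Δ* in fructose by 0.84. Of the ATP synthase, *ATP18* rose in the wild-type by 0.90 and 0.51 and in *gal80Δ* in fructose by 0.51, where none of the 11 subunit genes among the members passed, and *ATP19* rose in the wild-type in fructose alone, by 0.70.

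Of a wider list of 63 genes that act with the chain, 59 were tested, and 21, 22, 22 and 20 of them rose and 5, 3, 4 and 5 fell between mid-log and +10h (29.1%, 24.5%, 28.9% and 27.4% of all genes rose and 26%, 21.2%, 23.7% and 23.2% fell). *HAP4*, the regulatory subunit of the Hap complex, rose in every culture, by 1.53 in both wild-type cultures and by 1.2 and 1.44 in *gal80Δ*, as did *HAP1*, a haem-responsive activator, by 0.95 to 1.2, and *ROX1*, a repressor of hypoxic genes, by 2.14, 1.92, 0.84 and 1.06. The dehydrogenase genes *GUT2* (glycerol 3-phosphate) and *CYB2* (lactate) rose in every culture, by up to 1.76 and 1.61, and *STF2*, linked to the inhibitor of the ATP synthase, by 1.37 to 2.57. The carriers of ADP and ATP differed. *AAC1* rose by 1.80, 1.63, 1.70 and 1.42 and *AAC3*, known from cells without oxygen, fell by 2.58, 1.47, 1.93 and 1.69. *PET9*, the main carrier in aerobic cells, rose by 0.67 in the wild-type and fell by 0.61 in *gal80Δ*, both in fructose-palatinose, and had log2 changes of -0.38 and -0.43 in fructose that did not pass. *POR2*, the minor porin of the outer membrane, fell by 1.80, 1.38, 1.06 and 1.17.

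Between the media this list held 2 higher and 4 lower in the wild-type at +10h and 1 lower at +16h (11.6% and 6.19% of all genes changed), so that its share was near or below that of all genes. *SHH4*, a paralog of the anchor *SDH4*, was lower with palatinose by 1.05 at +10h and by 1.36 at +16h. *SDH9* was lower by 0.97 and 1.43 in the same comparisons, with adjusted p-values of 0.00775 and 0.000265 by edgeR. Between the strains 4, 4 and 0 genes of the list were higher in *gal80Δ* in fructose at the 3 times and 4, 8 and 5 in fructose-palatinose, and 1 was lower at +10h in each medium. The shares of all genes that differed were 7.15%, 7.5% and 5.97% in fructose and 8.01%, 14.3% and 12.8% in fructose-palatinose, and those of the list were of like size or lower. *GUT2* and *CYB2* were among those higher at mid-log in both media and at all 3 times in fructose-palatinose.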

How the data were processed

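The study measured transcripts in 36 libraries made with a 3′ kit primed on the poly(A) tail (QuantSeq REV). The authors trimmed, aligned and counted the reads on R64, with cutadapt 1.18, HISAT2 2.1.0 and featureCounts of Subread 2.0.0 among the tools in the submitters' processing notes, and deposited raw counts per gene, neither normalised nor scaled by length. Whether strand was used in counting, and how reads in overlapping intervals were treated, is not given in the sources used here. The OD at harvest is another deposited value, in optical density units. The 1 other per-sample column, a CPM, was computed again from the counts. Of the members, 25 have no other interval in the last 300 bases counted, 7 have one on the same strand and 25 an antisense one, so that reads of such pairs may not be told apart. Groups came from the sample labels, which say biological replicates.

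The counts entered edgeR 4.0.16 (R 4.3.3) with TMM factors, its filterByExpr rule applied to the 12 groups, and 1 quasi-likelihood fit of all 36 libraries without a block, tested on simulated data first. The thresholds are those of the study. All genes were fitted and adjusted together, in 23 contrasts of which only the members and the named lists are shown. Counts at an unadjusted p below 0.05 are of members alone, with no share of all genes beside them. Normalised CPM divides counts by the TMM library sizes. Shares and ratios were computed with Python 3.11.15 and pandas 2.3.3 from counts or CPM. Ratios were averaged over libraries. The windows before start codons came from the R64 sequence and RefSeq annotation.

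Members and lists were chosen with earlier results of these data known, and the rule for named genes took every member, with values per library for the isoform pairs, the largest changes in each direction and members called against the majority. Genes in the mitochondrial genome were not analysed here. Alternatives were library size alone, no filter on low counts, DESeq2 1.42.0, only the groups compared, replicate letter or culture as a block, each letter left out, the mean in place of the median of a complex, and the ratio of summed counts. A fit without wild-type fructose +10h replicate B was chosen after seeing the data.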

Additional observations from a re-analysis of the deposited data

Results flagged for a closer look

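At +16h, 3 genes outside the 55 members differed between the strains in their response to palatinose, by a test of the difference itself (edgeR's interaction term over all genes). For *SDH9*, the paralog of *SDH1*, the log2 effect of palatinose was higher in *gal80Δ* than in the wild-type by 1.30 (adjusted p = 0.0486). For *SHH4*, the paralog of *SDH4*, it was higher by 1.31 (adjusted p = 0.00561). For *CYT2*, which attaches haem to cytochrome c1, the difference was -0.73 (adjusted p = 0.0373). The alternative fits were read for the members alone, so these 3 differences were not checked under them. Groups of 3 are too small for a screen of single outlying values, so none was made within groups.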

How the results depend on the processing

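Of the 130 calls of members, 67 passed in every alternative, 63 were lost in at least 1 and none changed direction (changes over time 62 of 116, media 0 of 3, strains 5 of 11 kept in all). With only the groups compared in the fit, the calls from mid-log to +10h in the wild-type in fructose fell from 32 to 20, and those from +10h to +16h went from 4 to 0 there and from 3 to 5 in *gal80Δ* in fructose. Between media they went from 2 to 0 (wild-type +10h) and from 1 to 2 (+16h), between strains from 2 to 1 and from 2 to 0 in fructose at mid-log and +10h and from 2 to 6 in fructose-palatinose at +10h, and for the interaction at +16h from 0 to 1. With library size alone, mid-log to +10h gave 33 and 34 calls in *gal80Δ* in place of 19 and 20, and the strains at mid-log 6 and 7 in place of 2 and 3. DESeq2 gave 5 for *gal80Δ* in fructose from +10h to +16h and 2 between media in the wild-type at +16h. Without wild-type fructose +10h replicate B the fructose cultures had 0 (wild-type) and 5 (*gal80Δ*) calls from +10h to +16h, with 1 between media in the wild-type at +10h, and 0 (fructose +10h) and 5 (fructose-palatinose mid-log) between strains.

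Leaving out each letter gave 0 to 3 calls (wild-type fructose), 0 in each (wild-type fructose-palatinose), 3 to 5 (*gal80Δ* fructose) and 0 to 3 (*gal80Δ* fructose-palatinose) from +10h to +16h. It gave 22 to 34 and 23 to 34 from mid-log to +10h in the wild-type, the lowest without C in both media. Between media it gave 1 to 4 and 0 to 1 in the wild-type at +10h and +16h, and between strains 1 to 2, 0 to 2 and 0 to 1 in fructose and 1 for each letter with palatinose at mid-log.

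The labels do not say that a letter marks a shared culture or day. Same-lettered libraries deviated together in every pair (r over 0.1) in 3 of 20 comparisons, which were the media in the wild-type at mid-log, mid-log to +10h in the wild-type in fructose-palatinose, and the strains in fructose-palatinose at +10h. In those 3 the replicate block left the calls at 0, 33 and 2. Over the 20 the median pooled r was -0.0336. The replicate block raised the calls between strains in fructose at mid-log from 2 to 4 and changed no other count by more than 1.5 times.

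The median log2 changes of complexes from mid-log to +10h kept their sign. With library size alone they were 1.12 for complex IV in the wild-type in fructose, 2.09, 1.03, 1.34 and 0.75 for complexes II, III, IV and the ATP synthase in fructose-palatinose, 0.71, 0.86 and 0.51 for III, IV and the synthase in *gal80Δ* in fructose and 1.79, 0.70, 0.78 and 0.57 for II, III, IV and the synthase in fructose-palatinose. As means they were 0.81 for complex IV in the wild-type and 0.15 for the synthase in *gal80Δ*, both in fructose-palatinose. With a letter left out they ranged from 0.84 to 1.15 (complex IV, wild-type fructose-palatinose), 0.56 to 0.84 (complex IV, *gal80Δ* fructose), 0.20 to 0.49 (complex III) and 0.20 to 0.30 (synthase, both *gal80Δ* fructose-palatinose). No isoform ratio moved by more than its SD between replicates. Leaving out 1 of 3 libraries cannot move a mean that far, so only the ratio of summed counts could have. With a letter left out, *CYC1* to *CYC7* in the wild-type in fructose at +10h ranged from 7.09 to 21.9. By summed counts *SDH1* to *SDH9* in the wild-type in fructose at mid-log was 77.3, beside a mean of 170 ± 189 (SD). Where a count moved, the cause was not tested, beyond that library size alone shifts all changes together and fewer libraries were fitted.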
